A study of Mus musculus with 2 samples.

Results

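The Dlk1-Dio3 locus on mouse chromosome 12 carries a large imprinted group of microRNA genes, and its microRNAs were described here in embryonic kidney. Members were all microRNA rows of the deposited count tables that start between positions 109500000 and 109800000 of chromosome 12 on mm10. They numbered 58 of the 1973 gene rows, 53 on the plus strand and 5 on the minus strand in GENCODE M21, and spanned 203.42 kb from 109544541 to 109747960. For plus-strand rows the reads on the strand of the row were taken, and for minus-strand rows the reads on the opposite strand, so that each value stands for reads from the plus strand, the strand from which the noncoding RNAs of the locus are transcribed.

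MicroRNA sequencing, in which RNA fragments under 30 nucleotides are read, was applied to kidneys of B6NCrl mouse embryos at embryonic day 16.5. The series holds 1 group of 2 libraries, called replicates 1 and 2 in the labels, each from pooled kidneys of male and female embryos without any further treatment or genotype given. Kidneys of 41 embryos went into replicate 2, and for replicate 1 the sources used here give no such number. Both libraries carry the same donor record, so the spread between them may be partly technical, and with 1 group there is no contrast between conditions.

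At this locus the protein genes Dlk1, Rtl1 and Dio3 are expressed from the paternal chromosome, and the long noncoding RNAs Meg3, Rian and Mirg from the maternal chromosome. The microRNAs are cut from the maternal noncoding transcripts, and those opposite Rtl1 pair perfectly with its paternal mRNA and can direct its cleavage. A microRNA finds its targets mainly through its seed, so microRNAs with the same seed can bind overlapping sets of mRNAs. The locus is known for expression in embryo, placenta and brain, and its microRNAs fall in most other tissues after birth.

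The mature sequences of the 8 members with the highest mean level are shown first, because these rows held most of the reads of the locus. Letters are 5′ to 3′ from RefSeq on GRCm38.p6, and capitals mark the seed, bases 2 to 8. The tables count reads per gene row, so the 5p and 3p arms of a hairpin cannot be told apart, and both are given where the table of sequences holds both.
miR-411-5p: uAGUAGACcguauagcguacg
miR-411-3p: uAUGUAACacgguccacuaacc
miR-127-5p: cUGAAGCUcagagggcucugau
miR-127-3p: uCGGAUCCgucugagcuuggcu
miR-487b-5p: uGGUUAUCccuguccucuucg
miR-409-5p: aGGUUACCcgagcaacuuugcau
miR-409-3p: gAAUGUUGcucggugaaccccu
miR-379-5p: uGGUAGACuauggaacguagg
miR-379-3p: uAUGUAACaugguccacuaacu
miR-369-5p: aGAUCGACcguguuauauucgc
miR-369-3p: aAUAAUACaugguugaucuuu
miR-382-5p: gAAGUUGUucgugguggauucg
miR-382-3p: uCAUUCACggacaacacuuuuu
miR-431-5p: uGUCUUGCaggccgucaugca
miR-431-3p: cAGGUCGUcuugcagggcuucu

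A second set is shown because its members share a seed with another member and their rows together reached 100 counts per 1000000 (CPM) or more. The seed AUGUAAC is common to miR-411-3p and miR-379-3p above, and GGUAGAC to miR-379-5p and miR-1193-5p. AGGUCAC is common to miR-1193-3p and miR-370-5p, and GGUUGUC to miR-494-5p and miR-410-5p.
miR-1193-5p: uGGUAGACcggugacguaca
miR-1193-3p: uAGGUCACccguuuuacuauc
miR-370-5p: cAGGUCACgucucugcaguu
miR-494-5p: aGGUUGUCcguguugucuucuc
miR-410-5p: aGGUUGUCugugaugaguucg
Of the 104 mature sequences found for 56 of the 58 members, 96 seeds were distinct, and 8 seeds occurred in more than 1 member, over 12 members in all. For some members, Mir487b and Mir376c among them, only 1 arm was found, so counts of sequences and seeds may be incomplete. Rows that share AUGUAAC summed to 4431 CPM in replicate 1 and 5019 CPM in replicate 2. The GGUAGAC rows summed to 1691 and 1925 CPM, the AGGUCAC rows to 396 and 429 CPM, and the GGUUGUC rows to 127 and 155 CPM. Each sum counts whole rows and not the arm with that seed, so it is an upper value for the reads that could carry it. None of these 4 seeds was found in a mature sequence of another microRNA gene in the RefSeq table.

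Counted on the strand of the gene, rows naming no gene held 55.2% and 51.5% of all reads, opposite-strand reads of microRNA rows included. The remaining reads, on the gene strand of microRNA rows, numbered 5317669 in replicate 1 and 7128703 in replicate 2. CPM are per 1000000 of these reads, and a count of 0 allows up to 0.564 and 0.421 CPM (3 reads). The tissue label was compared with marker lists, which touch every level below. A row counts as detected where each library gives it at least 1 CPM. All 7 kidney microRNAs of the list were detected and summed to 268381 and 244876 CPM. Nearly all of this came from Mir10a, Mir10b, Mir196b and Mir30a. Mir192, Mir194-2 and Mir204 had means of 164, 95.2 and 227 CPM, within the range of single rows of the other lists below. Of the neuron list 4 of 8 rows were detected, with a sum of 531 and 547 CPM, and the Mir124a-1, Mir124a-2 and Mir124a-3 rows held 0, 0 and 0 reads in replicate 1 and 1, 0 and 0 in replicate 2. Of the striated muscle list 2 of 5 rows were detected (284 and 311 CPM), while Mir1a-1, Mir133a-1 and Mir133a-2 held no reads. These 6 rows each share an 18-nt stretch with a gene copy, and no gene row takes in reads that map to several places, so their counts say nothing about neurons or muscle. Rows without such a copy did have reads, Mir132 of neurons at 349 and 380.0 CPM and Mir206 of striated muscle at 267 and 287 CPM. Of the pluripotent list 6 of 10 rows were detected (20.9 and 39.4 CPM), and the liver microRNA Mir122 stood at 210.1 and 171 CPM. The part of such other cells in the levels of the locus was not tested. In whole kidneys a level can come from many cells or from few with much RNA, and these cannot be told apart.

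The locus was widely expressed in embryonic kidney. It held 106698 reads in replicate 1, 2.01% of the microRNA reads (exact 95% interval 1.99 to 2.02), and 161122 reads in replicate 2, 2.26% (2.25 to 2.27). The mean share was 2.13% ± 0.179 (SD, n = 2), so the libraries differed by far more than the counting error. The total counts reads on the strand of the gene, while 15912 and 25380 of the locus reads are opposite-strand reads of minus-strand rows, so this is a ratio to that total. With reads on either strand above and below, the mean share was 2.10%. Detected members numbered 46 of 58, where 19.7% of all rows of the tables were detected. A mean of 100 CPM or more was reached by 27 members, against 9.33% of all rows. At 10 CPM or more in both libraries there were 44 members, against 13.9% of all rows. The median member stood at 69.4 CPM, whereas the median row of the tables had no reads.

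No single member was among the leading microRNAs of the kidney. The highest, Mir411, had rank 44 among all rows, and 14 single rows elsewhere in replicate 1 and 15 in replicate 2 were each above the sum of the whole locus. Within the locus the reads were spread over several members. Mir411 alone held 15.1% ± 0.0384 of them and the highest 3 members together 36.0% ± 1.21 (SD, n = 2). This grew to 50.9% ± 0.726 with 5 members, 74.8% ± 0.0784 with 10 and 86.8% ± 0.0501 with 15. The 10 highest members were the same 10 in both libraries.

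**Figure D1:**
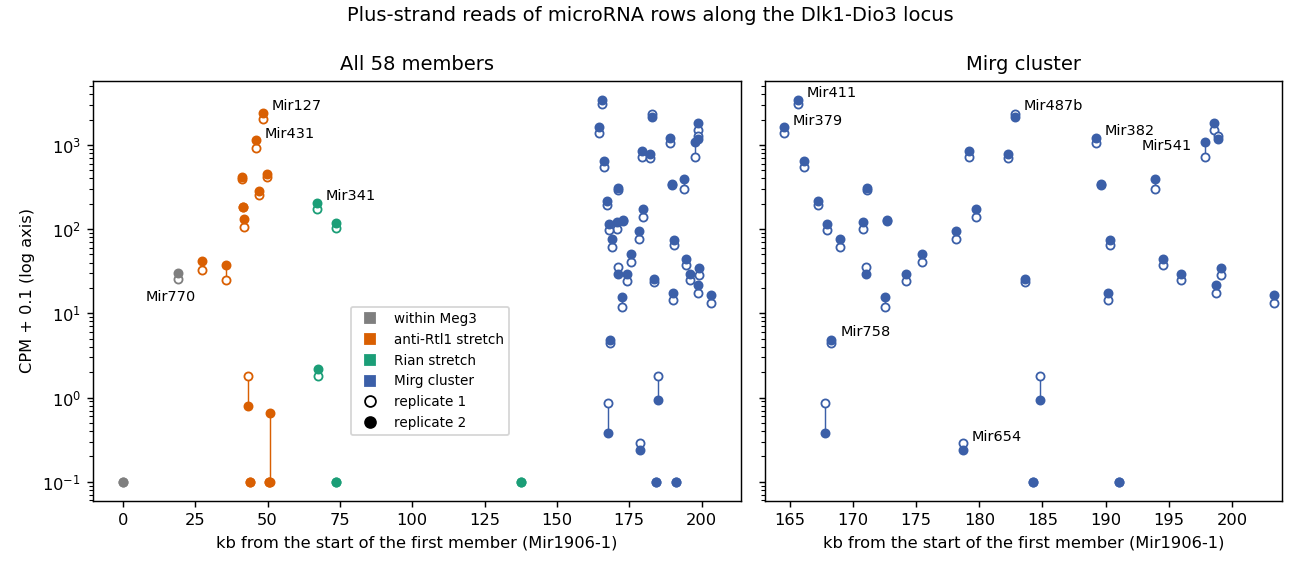
Level of each of the 58 members along the locus, with the distance from the first member in kb on the x axis and CPM + 0.1 on a logarithmic y axis. Open and filled points are replicates 1 and 2, joined by a line, and colours mark the 4 stretches. The right panel enlarges the Mirg cluster, in which Mir411 is highest at a mean of 3220.1 CPM and several rows lie below 1 CPM.

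Along the chromosome the members fall into 4 stretches, which were set by gene order. The first holds the 2 rows within Meg3, a noncoding RNA that can restrain cell growth. Mir770, which overlaps an exon of Meg3 (109541001 to 109571726), stood at 25.6 and 30.2 CPM, and Mir1906-1, the lowest of the stretch, had no reads. Together these rows made up 0.130% ± 0.00423 of the reads of the locus.

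The second stretch leads up to and lies opposite Rtl1, a retrotransposon-derived gene needed in the placenta. It held 13 rows over 23.4 kb, 9 of them detected and 7 at 100 CPM or more, with sums of 4390 and 5086 CPM, which is 22.2% ± 0.439 of the locus. Most of this came from the rows that overlap the annotated Rtl1 exon on the other strand. Of these 5 plus-strand rows, 4 were detected (Mir431, Mir433, Mir127 and Mir434), and they summed to 3652 and 4276 CPM, or 18.6% ± 0.507 of the locus. The fifth, Mir432, had no reads, and neither did Mir3070b, the row named as lowest of the stretch.

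The third stretch runs from Rian, which also hosts small nucleolar RNAs, towards the Mirg cluster. Its 5 rows covered 70.8 kb but gave sums of 280 and 324 CPM, 1.41% ± 0.0288 of the locus, nearly all from Mir341 and Mir370 in introns of Rian. Mir1188, 226 bases downstream of Mir341 in the same gene, was at 1.69 and 2.10 CPM, and the lowest rows, Gm23912 and Mir882, had no reads.

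The fourth stretch is the Mirg cluster, known by its outer members as the miR-379/miR-410 cluster and linked to metabolic adaptation at birth and to behaviour. Its 38 rows lay within 38.9 kb, 33 of them detected and 18 at 100 CPM or more. They summed to 15369 and 17162 CPM, 76.3% ± 0.472 of the locus, which is 3.50 and 3.37 times the sum of the anti-Rtl1 stretch. The cluster also has more rows, and its median row (77.8 CPM) stood below that of the anti-Rtl1 stretch (118 CPM). By share of the locus, the order of these 4 stretches was the same in both libraries, with gaps far larger than the spread. In GENCODE M21 Mirg begins at 109729764, inside the cluster. The 24 rows before that point summed to 9947 and 10849 CPM (48.8% ± 1.11 of the locus) and the 14 rows within annotated Mirg to 5422 and 6313 CPM (27.5% ± 0.641). The rows upstream of the annotated gene, 24 of the 38 in the cluster, thus held most of its reads, a share close to their share of the rows. Its lowest rows, Mir453 and Gm27379, had no reads.

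**Figure D2:**
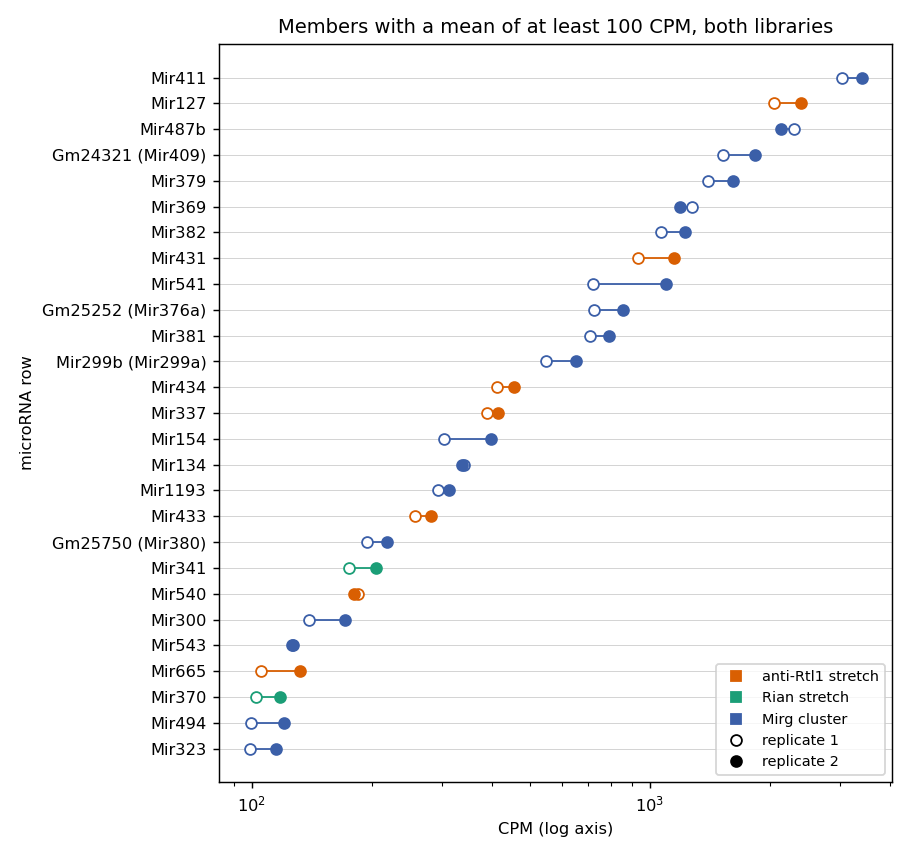
CPM in both libraries (log x axis) of the 27 members with a mean of at least 100 CPM, in order of the mean, with colours for the stretch. Names in parentheses are the plus-strand genes that lie in the interval of a minus-strand row; the points of a member lie close together next to the 29.9-fold range from Mir411 to Mir323.

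Mir411 (chr12:109710175-109710256), near the upstream end of the Mirg cluster, had 3034 CPM in replicate 1 and 3406 CPM in replicate 2. Mir127 (chr12:109592846-109592915), the best studied of the microRNAs opposite Rtl1, had 2051 and 2391 CPM. Mir487b (chr12:109727333-109727414) had 2301 and 2139 CPM, so the libraries gave Mir127 and Mir487b in opposite orders. Both stood below Mir411 in each library, although the fold from Mir411 to Mir127 was 1.45, just past what the replicate spread covers.

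That limit was a fold of 1.34, from the pooled replicate SD of 0.22 log2 over the 184 rows with a mean of 100 CPM or more. Of the 26 steps between neighbours in the order of the 27 members, 2 exceeded it, the step below Mir411 and the step below the Mir299b row. All folds between members are on the log2(CPM + 1) scale, which understates them for members with few reads. The ranks between these steps are therefore not resolved one from the next. By this limit the ends are, since Mir411 stood 29.9-fold above Mir323. The limit covers the spread of the same row between libraries. It does not cover a bias between sequences that repeats in both libraries, which was not tested.

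Gm24321 (chr12:109743158-109743237), a minus-strand row in whose interval plus-strand Mir409 lies, had 1524 and 1832 CPM. Mir379 (chr12:109709060-109709125), which opens the Mirg cluster and gives it one of its names, had 1397 and 1613 CPM. Mir369 (chr12:109743418-109743496), used with other microRNAs to reprogram cells, had 1272 and 1188 CPM. Both libraries put these 3 members in the same order, with steps between their means that were within the spread. Mir382 (chr12:109733771-109733846) had 1063 and 1221 CPM. Mir431 (chr12:109590447-109590537), opposite Rtl1 like Mir127, had 932 and 1147 CPM. With them 8 members stood above a mean of 1000 CPM, 6 of them in the Mirg cluster.

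Mir541 in an intron of Mirg had 719 CPM in replicate 1 and 1098 CPM in replicate 2, the widest gap between libraries among these members. The Gm25252 row, in whose interval lies Mir376a, a microRNA whose seed is known to be edited in brain, had 725 and 858 CPM. Mir381 had 709 and 790 CPM, with a mean of 749 ± 57.5. These values overlap, and the order of these members changed between the libraries. The Mir299b row, which lies inside plus-strand Mir299a, had 549 and 652 CPM, and below it the level dropped by a step past the spread.

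Mir434, opposite Rtl1, followed with 412 and 457 CPM. Mir337, at lower coordinates than Rtl1, had 389 and 416 CPM. Mir154, after which the largest family of related hairpins here is named, had 303 and 399 CPM. In replicate 2 Mir154 stood above Mir134 and in replicate 1 below it. Mir134, which acts on dendritic spines of neurons, had 342 and 338 CPM. Mir1193, next to Mir679 in the cluster, had 294 and 312 CPM. Mir433, which lies between Mir431 and Mir127 opposite Rtl1, had 257 and 282 CPM. The 6 members from Mir434 to Mir433 thus covered a range of mean levels from 434 down to 269 CPM.

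The Gm25750 row, in whose interval Mir380 lies, had 194 and 218 CPM. Mir341, a microRNA of rodents in an intron of Rian, had 175 and 205 CPM, and Mir540 had 185 and 181 CPM. The order of Mir341 and Mir540 was not the same in both libraries. Mir300 had 139 and 172 CPM and Mir543 had 127 and 126 CPM. Mir665 had 105 and 132 CPM, and Mir370, the lower of the Rian pair, had 102 and 117 CPM. Mir494 had 99.3 and 120.2 CPM and Mir323 had 98.7 and 115 CPM, so both were below 100 CPM in replicate 1 and above it in replicate 2.

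Below 100 CPM the next members were Mir376c (76.2 and 95.5 CPM), Mir485 (65.4 and 74.2 CPM) and Mir329 (61.3 and 76.5 CPM), the latter pair known from neurons. In all 21 members had a mean from 1 to 100 CPM, among them Mir673 and Mir493 of the anti-Rtl1 stretch and Mir410, the other microRNA that names the cluster, at 28.2 and 34.4 CPM. Another 10 were below 1 CPM, and 7 of these had no read in either library. At the detection limit, Mir1188 (9 and 15 reads) was inside, and Mir544 (9 and 6 reads) and Mir3070a (9 and 5 reads) were outside.

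Neighbouring genes, which can be cut from the same transcript, stood at unlike levels. Over the 45 pairs of detected members adjacent on the chromosome, the median fold on log2(CPM + 1) was 5.07, 43 pairs exceeded 1.34-fold and 14 reached 10-fold or more. In the 22 pairs less than 1000 bases apart the median fold was 8.65, and 8 reached 10-fold. In the 23 pairs farther apart it was 4.67, and 6 reached 10-fold. For scale, 980 pairs of detected members, adjacent or not, had hairpins less than 70% identical. Their median fold was 5.67, and 36.4% reached 10-fold. The median of all 45 neighbour pairs lay below that value and the median of the 22 close pairs above it. Whether neighbours differ from other pairs was not tested. Around the end of the cluster, Mir412 (17.1 and 21.5 CPM) lay 51 bases after the Gm24321 row and 49 bases before Mir369, and stood 82.9-fold below the former and 61.0-fold below the latter. Mir410, 218 bases after Mir369, was 38.3-fold below it. Mir539 (23.3 and 25.7 CPM) lay 714 bases after Mir487b and 87.1-fold below it. The 1.34-fold limit was set on rows of 100 CPM or more, and members with few reads spread more. It also leaves out any bias between sequences that repeats in both libraries.

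**Figure D3:**
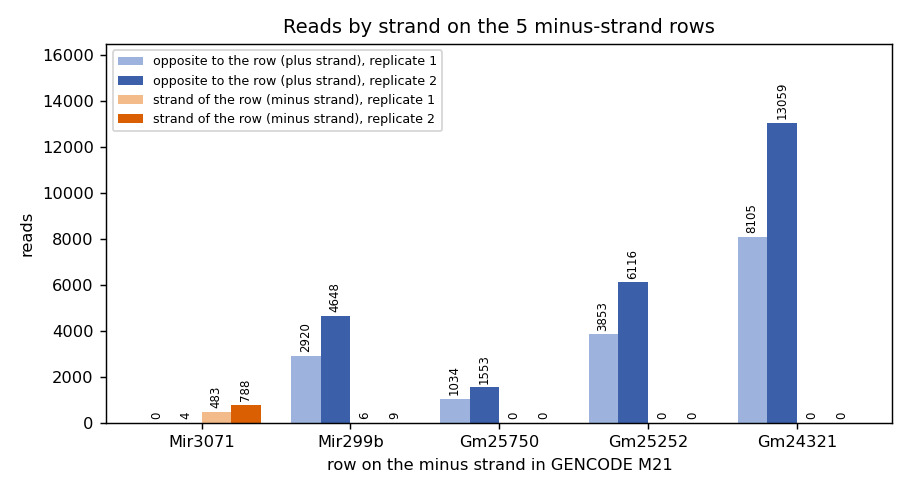
Reads by strand on the 5 rows that GENCODE M21 puts on the minus strand, with bars for the plus and the minus strand in each library and the read count above each bar. All reads of Gm24321, Gm25252 and Gm25750 and nearly all of Mir299b lie on the plus strand, while those of Mir3071 lie on the minus strand.

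The minus-strand rows carried a visible share of the locus. With reads on the strand of the row for every member, 4 of them would be at or near 0, and the locus would hold 1.82% ± 0.141 of the microRNA reads in place of 2.13%. Gm24321 had 8105 and 13059 reads on the plus strand and none on its own. Gm25252 had 3853 and 6116 against none. The Mir299b row had 2920 and 4648 against 6 and 9, and Gm25750 had 1034 and 1553 against none. Each of these rows covers or lies inside a plus-strand microRNA gene of GENCODE M21 that has no row of its own here, namely Mir409, Mir376a, Mir299a and Mir380. Their plus-strand reads made up 14.9% and 15.8% of the locus, and 13.7% and 15.6% of all opposite-strand reads in the tables. Of all rows of the tables, 10 had more reads on the opposite strand than on their own with at least 1 CPM in both libraries.

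Mir3071, which lies opposite Mir136 and overlaps the Rtl1 exon, went the other way. It had 0 and 4 plus-strand reads and 483 and 788 reads on the strand of the row, 90.8 and 111 CPM. Under the plus-strand rule it therefore counted as not detected, although its row held nearly as many reads as the Mir323 row (525 and 819), the last of the ranked members. Strand is relative to the annotation the authors counted with, release M4, which was not used here. Identifiers of 17 members differ in version between the tables and M21, Mir411 and Mir127 among them, so their positions and strand rest on M21. Of the minus-strand rows these are Mir3071 and Mir299b. Which strand these 2 rows had in M4 is not known, and the strand of their reads rests on M21. The plus-strand rows as a whole had 1 and 16 reads on their opposite strand, against 90786 and 135742 on their own. All of these lay on the Mir337 row, which Mir3544 of M21 overlaps on the minus strand.

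Members with close copies may be undercounted too, for the reason given for the marker rows. An 18-nt stretch was shared with another microRNA gene by 7 members, which held 26.0% ± 1.43 of the reads of the locus. Over all rows 969 of 1973 shared such a stretch. Among the 7 were Mir411, which shares it with Mir758, and Mir487b and Mir376c, which share it with Mir376b. Mir3070a and Mir3070b share such a stretch with each other, and Mir1906-1 with Mir1906-2. The few or absent reads of these rows therefore do not show a low level. Mir376b is one of 8 microRNA genes of M21 in the window without a row here.

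Many mature sequences of the locus begin alike, a pattern seen in the sequences after the levels were known. Bases 2 to 4 read GGU in 20 of the 104 (19.2%), each from a different row and 15 of them from the Mirg cluster, against 21 of 1630 mature sequences of other microRNA genes in the RefSeq table (1.29%). Of these 20, 16 were 5p arms, miR-379-5p, miR-409-5p and miR-487b-5p among those shown above. Bases 2 to 4 read AUG in 6 sequences, all of them 3p arms from the Mirg cluster and among them miR-411-3p and miR-379-3p, against 1.53% elsewhere. The sequences may share ancestry, which was not tested, so they cannot be taken as independent. Rows with a GGU arm ranged from Mir487b at the top to Mir453 with no reads, so rows with this start stood at very different levels. The median mature length was 22 bases, and 45 of 104 started with U and 36 with A.

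**Figure D4:**
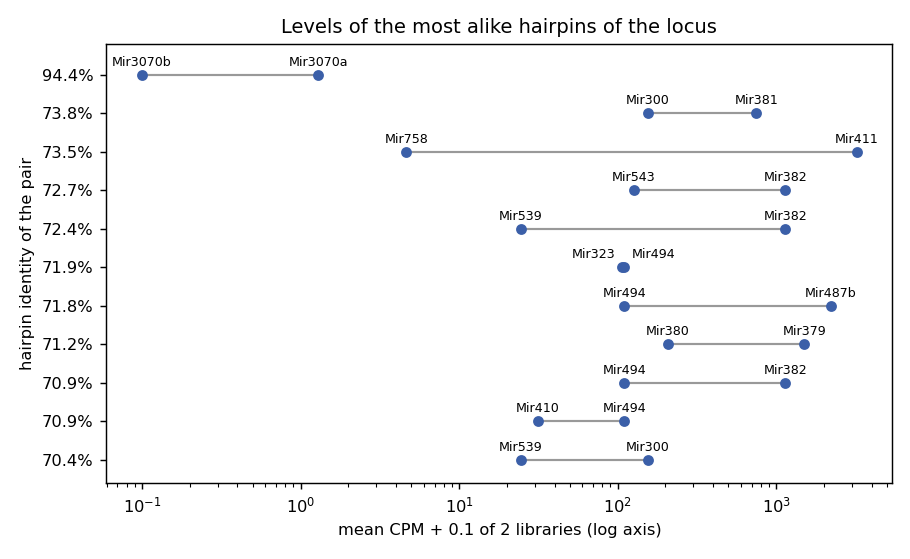
Mean CPM + 0.1 (log x axis, n = 2 libraries) of both members of the 11 pairs with hairpins at least 70% identical, with the identity on the y axis. Lines join the members of a pair, and most span several-fold, up to the 581-fold gap between Mir411 and Mir758. Mir380 stands for the Gm25750 row.

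Members with alike hairpins also stood at unlike levels. Hairpin sequences were found for 53 members, giving 1378 pairs with a median identity of 48.5%, and 11 pairs were at least 70% identical. Of these, 10 pairs had both members detected and a median fold of 8.11, and 4 reached 10-fold. The other 980 pairs of detected members had a median fold of 5.67, and 36.4% reached 10-fold, so alike hairpins were not closer in level here, as a description without a test. Mir411 and Mir758, 73.5% identical, differed 581-fold, although this pair shares an 18-nt stretch and Mir758 (4.33 and 4.77 CPM) may be undercounted. Mir539 and Mir382, 72.4% identical, differed 44.8-fold. Mir494 and Mir487b (71.8%) differed 20.1-fold, and Mir379 and Mir380 (71.2%, read from the Gm25750 row) differed 7.27-fold. Mir300 and Mir381, 73.8% identical, differed 4.79-fold. Mir323 and Mir494 (71.9%) were the one pair within the spread, at 1.03-fold. The most alike pair, Mir3070a and Mir3070b (94.4%), had 9 and 5 reads against none, too few to compare.

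Hairpin features followed the level weakly over these 53 members, which share libraries and may share ancestry. Spearman's rho of mean level was 0.06 with position along the locus, -0.09 with hairpin length, -0.18 with GC share and -0.21 with predicted folding energy per base, where a more negative energy means a more stable hairpin. Over the 43 members with a mean of at least 10 CPM, rho with folding energy was 0.16, so the sign rests on the members with few reads. Hairpins of the 27 members at 100 CPM or more had a median folding energy of -0.44 kcal/mol per base and a median GC share of 45.7%, against -0.41 kcal/mol and 48.7% in the 26 below.

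The libraries were then compared member by member, to see how far they differed. With TMM scaling the summed locus had a log2 ratio of replicate 2 to replicate 1 of 0.03. With this scaling none of the 27 members that averaged 100 CPM or more was 1.5-fold apart, and their log2 ratios ran from -0.25 to 0.47. With library totals Mir541 passed that fold, at a log2 ratio of 0.61. In the exact binomial test, which takes in counting error only, 14 of 48 members tested passed an adjusted p of 0.05, where 34.1% of all 457 rows tested did. Of these 14, 9 were higher in replicate 2, against 16.2% of all rows, and 5 were lower, against 17.9%. The median log2 ratio was 0.08 for the members and 0.01 for all rows. With TMM scaling the count of members called lies near that background, and a smaller share of members than of all rows was lower. With library totals the members were higher more often than all rows, as given below.

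Mir541 was highest in replicate 2 among the abundant members, with 3822 and 7824 reads and a log2 ratio of 0.47 (counting error 0.03, exact binomial test with Benjamini-Hochberg adjustment, adjusted p = 1.0e-60). Mir154 followed at 0.25 (adjusted p = 1.3e-07) and Mir431 at 0.15 (adjusted p = 1.6e-08). Lowest were Mir487b at -0.25 (adjusted p = 2.8e-45), Mir369 at -0.24 (adjusted p = 6.1e-24) and Mir540 at -0.17 (adjusted p = 0.0154). Mir541 and Mir369, both at the downstream end of the Mirg cluster, went opposite ways. Below 100 CPM 2 of 21 members tested passed, Mir493 at 0.47 (adjusted p = 0.00712) and Mir679 at -0.42 (adjusted p = 0.0130). At 100 CPM or more 12 of 27 passed. The shares of all rows that passed at these levels were not worked out, so neither count has a background.

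These calls speak of 2 libraries, not of conditions. With a biological coefficient of variation set to 0.2 in edgeR's exact test, none of the 48 members passed, none had an unadjusted p under 0.05, and 3 of 457 rows passed (0.656%). With library totals in place of TMM, all log2 ratios rose by 0.15 and 28 members passed, 26 of them higher (33.9% of all rows were higher and 8.97% lower). In that scaling Mir540 was at -0.03 (adjusted p = 0.780, and from 0.00741 to 1 over all alternatives), so its call depends on the scaling.

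**Figure D5:**
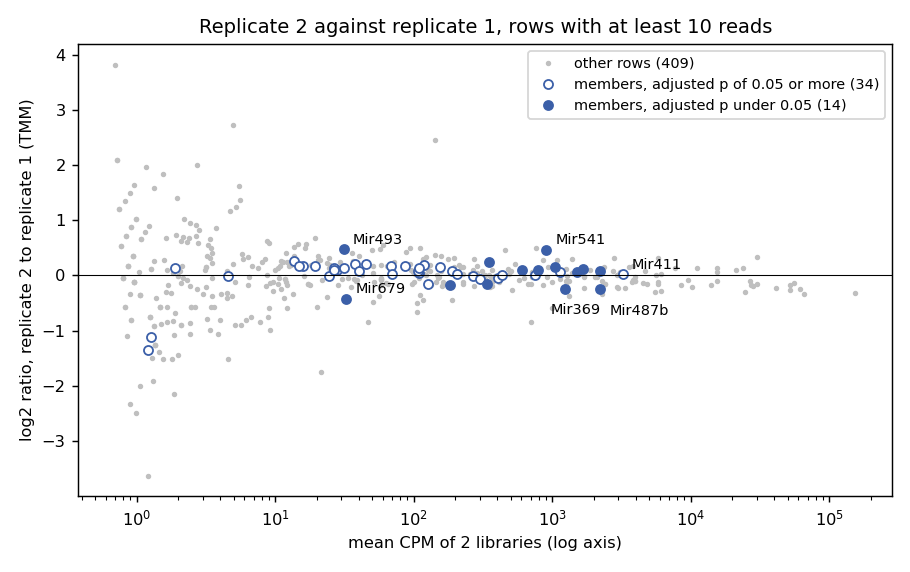
Log2 ratio of replicate 2 to replicate 1 (TMM scaled) against mean CPM (log axis) for the 457 rows with at least 10 reads. Grey points are the 409 other rows, and blue circles the 48 members, filled for the 14 with an adjusted p under 0.05, all of which lie between -0.42 and 0.47.

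Other imprinted microRNAs give the locus a scale. Mir335, in an intron of the paternally expressed Mest, stood at 70219 and 61449 CPM, above the sum of the 58 members (20065 and 22602 CPM) in each library. Mir296 of the Gnas locus had 3700.1 and 3789 CPM, above every member of the locus in both libraries. Mir298 of the same locus had 2030.2 and 2196 CPM, close to Mir127. Mir483, in an intron of the growth factor gene Igf2, had 732 and 880 CPM. Mir675, cut from H19, had 60.4 and 51.3 CPM. Mir1247 beside Dio3, at the far end of the same imprinted domain and outside the window, had 5.27 and 7.43 CPM, a level above Mir758 and Mir1188 and below the other detected members.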

How the data were processed

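The values deposited by the authors are unnormalized read counts for each microRNA gene of annotation M4 on mm10, in columns for both strands together, for the gene's own strand and for the opposite one. Assembly and annotation are named in text files deposited with the tables. The programs for trimming, alignment and counting were not given in the sources used here. Summed over the gene rows, the first of the 3 columns equals the sum of the other 2, which does not hold for the rows that name no gene. In the column for the gene's own strand, the rows that name no gene held 55.2% and 51.5% of the 11877442 and 14706415 reads. This share includes the opposite-strand reads of gene rows. The 4 rows were kept out of totals and tests. They include reads that map to several places, 28.0% and 25.3%, which are in no gene row.

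All 58 members matched GENCODE M21 by identifier without version, and names, strand and positions come from that release. For 17 of them the version differed. CPM were computed from all 5317669 and 7128703 reads on the strand of the gene, also for minus-strand members. Intervals are exact Clopper-Pearson intervals, and like the floor of 3 reads they reflect counting error alone, because PCR copies of a molecule are counted as separate reads. The spread between members was set against 1.96 times the SD of log2(CPM + 1) between libraries, pooled over rows at 100 CPM or more, for a difference of 2-library means. Hairpins were aligned globally with Biopython 1.88 and folded with RNAfold 2.7.2. Of the 58 members, 53 had a hairpin and 56 a mature sequence in the RefSeq tables on GRCm38.p6.

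Replicate 2 was compared with replicate 1 over the 457 rows with at least 10 plus-strand or gene-strand reads summed, by a two-sided exact binomial test with edgeR 4.0.16 TMM factors (0.951 and 1.05) and Benjamini-Hochberg adjustment. The test was tried on simulated counts that hold counting error only, so the trial does not cover a wider spread between libraries. The quasi-likelihood test of edgeR needs residual degrees of freedom, which 1 library a side does not leave. Alternatives were library totals, DESeq2 1.42.0 size factors, no filter, and the exact test of edgeR with a coefficient of variation of 0.2.

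The members, the stretches and the marker lists were chosen with earlier results of these data known. Named are all members with a mean of at least 100 CPM, the minus-strand rows, the lowest row of each stretch, and the 3 highest and 3 lowest replicate ratios among called members at 100 CPM or more. Sequences are shown for the 8 highest members and for members that share a seed in groups of 100 CPM or more. Other members were named after their values were seen.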

Additional observations from a re-analysis of the deposited data

Results flagged for a closer look

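Reads on the minus strand of the locus lie outside the plus-strand measurement and were seen on 3 rows. Mir3071 had 483 reads in replicate 1 and 788 in replicate 2. Mir337 had 1 and 16, and the Mir299b row had 6 and 9. The library with 1 read lies under the 3 reads that a count of 0 allows. All other members on the plus strand, and Gm24321, Gm25252 and Gm25750, had no minus-strand read in either library. The strand of the Mir3071 and Mir299b rows in the annotation the authors used was not tested.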

How the results depend on the processing

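The number of detected members kept within 1.5 times its value in all alternatives, from 44 to 48. The locus share ranged from 2.01 to 2.26% with 1 library left out. It was 1.82% with reads on the strand of the row for every member, 1.58% without members that share an 18-nt stretch, 1.81% without Mir411, and 0.997% of all reads of the tables, each set by the smaller numerator or larger total. Under the first 3 of these settings, in the same order, the rows within Meg3 held 0.153%, 0.176% and 0.154% of the locus, the anti-Rtl1 stretch 26.6%, 30.0% and 26.1%, the Rian stretch 1.66%, 1.91% and 1.67%, and the Mirg cluster 71.6%, 67.9% and 72.0%, so the order of stretches did not change. Counting Mir3071 on the strand of its row, an alternative chosen after the data were seen, gave a locus share of 2.14%. Between the libraries, library totals called 28 members (26 higher, 2 lower), while the edgeR exact test with a coefficient of variation of 0.2 called 0 members (0 higher, 0 lower; 0 at an unadjusted p under 0.05) and 3 of all rows. Spearman's rho without members that share a stretch and at 10 CPM or more was -0.0216 and -0.128 for position, -0.0735 and -0.0312 for hairpin length and -0.148 and -0.136 for GC share, and 0.164 at 10 CPM or more for folding energy. With 1 library left out these ranged from 0.0504 to 0.0663, from -0.0852 to -0.0798, from -0.178 to -0.171 and from -0.218 to -0.206. The sign for position changed under both settings and that for folding energy under the second; the cause was not tested. No paired analysis was possible because the series holds 1 group.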

Other observations

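On the same chromosome, Mir342 and Mir345 lie at lower coordinates than the window and outside the imprinted genes. Mir342, in an intron of Evl, had 2352 and 3252 CPM, within the range of the highest members of the locus. Mir345 had 51.7 and 52.5 CPM. Some seeds of the locus also occur in microRNAs elsewhere, and 11 seeds of members were found in a microRNA gene with a row outside the window. For 8 of these 11 every such row was below 1 CPM. The other 3 seeds were those of miR-412-3p, shared with Mir1983 (mean 1129.7 CPM against 19.3 CPM for Mir412), of miR-377-5p, shared with Mir672 (123 CPM against 26.7 CPM for Mir377), and of miR-329-3p, shared with Mir362 (56.7 CPM against 68.9 CPM for Mir329).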
